A study of Mus musculus with 262 samples.

Results

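Bicarbonate and anion exchangers of the Slc4 and Slc26 families were followed through mouse kidney cells and tubules. The 9 genes, found by their symbols among 47069 genes in the TPM tables, were Slc4a1, Slc4a2, Slc4a4, Slc4a7, Slc4a8, Slc4a9, Slc26a4, Slc26a7 and Slc26a11. All 9 were present in every deposited table. The study profiled 262 samples of polyadenylated RNA from the kidneys of male mice aged 2 months. Most were single cells of strain C57BL/6, sorted with c-Kit, DBA, both or PNA and captured in microfluidic chambers. By the submitters' names there were 87 type A intercalated, 23 type B intercalated, 74 principal, 19 proximal tubule and 32 non-epithelial cells. Bulk samples of sorted C57BL/6 cells comprised 2 selected for c-Kit, the Kit receptor, and 2 for binding of the lectin DBA. From strain Atp6v1b1GFP, 2 GFP-positive and 2 GFP-negative samples were sorted by fluorescence. The strain name joins GFP to a gene of the vacuolar proton pump, and the sources used here do not state which cells fluoresce. The remaining samples were single tubules dissected by hand from C57BL/6 mice, 11 of them collecting ducts of the cortex (CCD) and 8 thick ascending limbs of the cortex (cTAL).

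Exchangers of the Slc4 family move bicarbonate across the cell membrane, either against chloride or together with sodium, and those of the Slc26 family move chloride, bicarbonate, sulfate and other anions. In the collecting duct, intercalated cells use them to return bicarbonate to the blood (type A, through the basolateral exchanger AE1) or to secrete it into the urine (type B, through the apical exchanger pendrin). Cytosolic carbonic anhydrase supplies the bicarbonate, and proton pumps on the opposite membrane carry the matching acid. In the proximal tubule, a sodium-coupled transporter returns most of the filtered bicarbonate to the blood.

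Windows of 250 bases before a start site, taken from the RefSeq table (GRCm38.p6), were used here for 5 of the 9 genes, in 7 entries. Windows of the other genes were not searched, so the statements on motifs do not cover them. The sequences of 3 of these windows are printed 5′ to 3′ on the strand of the gene, because they belong to genes with unlike patterns in these data: Slc26a4, which was found in every type B cell, Slc4a7, which was detected in few single cells, and Slc4a4, the leading member in proximal tubule cells. Capitals mark the letters TATAAA, which were searched on both strands.
Slc26a4 promoter, chr12:31559985-31560234, minus strand: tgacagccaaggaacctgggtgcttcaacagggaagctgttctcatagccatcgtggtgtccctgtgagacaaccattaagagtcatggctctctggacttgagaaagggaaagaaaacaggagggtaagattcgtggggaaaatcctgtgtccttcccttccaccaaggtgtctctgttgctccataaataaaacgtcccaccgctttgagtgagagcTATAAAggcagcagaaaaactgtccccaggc
Slc4a7 window at a start within the gene, chr14:14718534-14718783, plus strand: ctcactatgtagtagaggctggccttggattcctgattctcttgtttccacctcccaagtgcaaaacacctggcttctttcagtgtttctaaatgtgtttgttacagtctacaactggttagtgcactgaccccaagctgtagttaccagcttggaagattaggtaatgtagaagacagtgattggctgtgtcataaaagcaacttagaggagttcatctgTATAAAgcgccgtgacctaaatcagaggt
Slc4a4 promoter at its downstream start, chr5:89027716-89027965, plus strand: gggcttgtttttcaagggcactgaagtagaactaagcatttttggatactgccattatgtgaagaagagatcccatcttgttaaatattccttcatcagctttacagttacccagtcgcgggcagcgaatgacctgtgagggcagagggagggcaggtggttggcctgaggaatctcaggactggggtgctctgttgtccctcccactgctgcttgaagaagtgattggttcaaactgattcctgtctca

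The letters TATAAA began 31 bases before the listed start of Slc26a4 and 29 bases before that of Slc4a7, on the strand of the gene in both. They were found in 12.4% of 32851 RefSeq promoter windows of the same length, and in none of the other 5 windows used here. Forkhead letters (GTAAACA or ATAAACA, the latter sharing ATAAA with TATAAA) were found in 7.10% of all windows and in none of the 7 windows here. Letters of the HNF1 motif were found in 3 of the 32851 windows and in none of these. A missing match says only that these letters are not in this window. The listed start of Slc4a7 lies 16505 bases inside the gene as annotated by GENCODE, so its window is not that of the most upstream start. The 2 listed starts of Slc4a4 are 140706 bases apart. Their windows were 82.0% and 48.8% G and C, the first value belonging to the upstream start. That start is listed 442 bases inside the gene, and its window lies wholly in annotated exons. The listed starts of Slc4a2 are 1395 and 2007 bases inside its gene. Slc4a4 is known for alternative start sites that give proteins with different amino ends, and the gene-level values used here do not separate them.

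The genes are spread over 7 chromosomes of the GRCm38 build in the GENCODE M21 annotation. Slc4a1 lies on the minus strand at chr11:102348824-102366203 and Slc26a11 on the plus strand at chr11:119355557-119381079. Slc4a2 lies at chr5:24423837-24440950 and Slc4a4 at chr5:88886818-89239653, both on the plus strand. Slc4a7 is at chr14:14702279-14799940, Slc4a8 at chr15:100761747-100823968 and Slc4a9 at chr18:36528147-36556273, also on the plus strand. Slc26a4 at chr12:31519827-31559969 and Slc26a7 at chr4:14502430-14621805 are on the minus strand. Exons of Slc4a2 share 1141 bases with exons of Fastk on the opposite strand. The sources used here do not state whether reads were counted by strand, so the level of Slc4a2 is uncertain.

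By median sum, the markers of each labelled cell type were highest in that type, though single cells departed from this. The summed level of 4 intercalated markers (Foxi1, Atp6v1b1, Atp6v0d2 and Atp6v1g3) had medians of 4069, 6008 and 108 TPM in type A, type B and principal cells. TPM is an abundance per length, scaled to the same total in each library. Leukocyte markers had a median sum of 36955 TPM in the non-epithelial cells. The intercalated sum fell to 0.32 TPM in a type A cell, and the principal marker sum reached 10989 TPM in a proximal tubule cell. Type B markers had a median sum of 508 TPM in type A cells, against 2293 TPM in type B cells. Genes detected at 1 TPM or more numbered 1092 to 4307 per cell. No animal is named for any cell, so each type was treated as 1 sample and differences between types were not tested. Depth is known only for the GFP samples, with 35530885 to 40815091 reads in genes. Among the tubules, 1 CCD stood apart: it had 7621 genes at 1 TPM or more, against 10323 to 14004 in the other CCDs, and a median correlation of 0.667 with its own segment, against 0.822 to 0.925. Tests, shares and ratios in tubules were also computed without it.

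In single cells, Slc4a1 and Slc26a4 were read in opposite intercalated types, and Slc4a9 in both. Slc4a1, which encodes AE1, was detected at 1 TPM or more in 77 of 87 type A cells (88.5%, exact 95% interval 79.9% to 94.3%) but only 1 of 23 type B cells had it (4.35%, 0.110% to 21.9%). Slc26a4, which encodes pendrin, was detected in all 23 type B cells, while 2 of 87 type A cells had it (2.30%, 0.280% to 8.06%). Slc4a9, which encodes AE4, was found in 68 of 87 type A cells (78.2%, 68.0% to 86.3%) and 21 of 23 type B cells (91.3%, 72.0% to 98.9%). These intervals cover counting error only. The types are the submitters' own, and whether exchanger genes served to name them was not checked. Their separation by type is therefore a description and not separate evidence.

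Slc4a1 ranged from 0 to 961 TPM over type A cells, with a mean of 195 TPM and a median of 94.1 TPM. Mean levels in type B, principal, proximal tubule and non-epithelial cells were 0.316, 18.1, 3.50 and 32.7 TPM. The median was below 1 TPM in each type but type A, so the order of the other means rests on a few cells. Besides the kidney, AE1 is the band 3 protein of red cells. None of 8 erythroid markers, globin genes among them, was detected in type A, type B, proximal tubule or non-epithelial cells, and their summed level was 2.77 TPM at most in any principal cell.

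Slc26a4 ranged from 190.95 to 2324.64 TPM over type B cells, with a mean of 1201 TPM and a median of 1135 TPM. In the other types its mean lay between 0.161 TPM in proximal tubule cells and 0.447 TPM in principal cells. The cells holding it were 1 of 74 principal, 2 of 19 proximal tubule and 3 of 32 non-epithelial cells. Outside type B, the highest value was 28.34 TPM in a principal cell. The type B range therefore did not overlap that of any other type. The type names may rest on this gene, and the share of all genes without overlap was not computed.

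Slc4a9 ranged from 0 to 1592 TPM over type A cells (mean 230 TPM, median 76.4 TPM) and from 0.06 to 1332 TPM over type B cells (mean 406 TPM, median 424 TPM). The ranges overlapped, and the spread between cells was wide, with SDs of 328 TPM in type A, above the mean, and 346 TPM in type B, below it. AE4 lies on the basolateral membrane of intercalated cells in rodents. Among principal cells, 12 of 74 held the gene, with a mean of 20.5 TPM and a median of 0.31 TPM. In non-epithelial cells it was detected in 9 of 32, with a mean of 72.0 TPM and a median of 0.41 TPM. Summed intercalated markers had a median of 2579 TPM in those 9 cells and 46.6 TPM in the other 23. The source of these readings was not tested. In proximal tubule cells Slc4a9 was detected in 4 of 19, with 2.38 TPM at most.

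**Figure D1:**
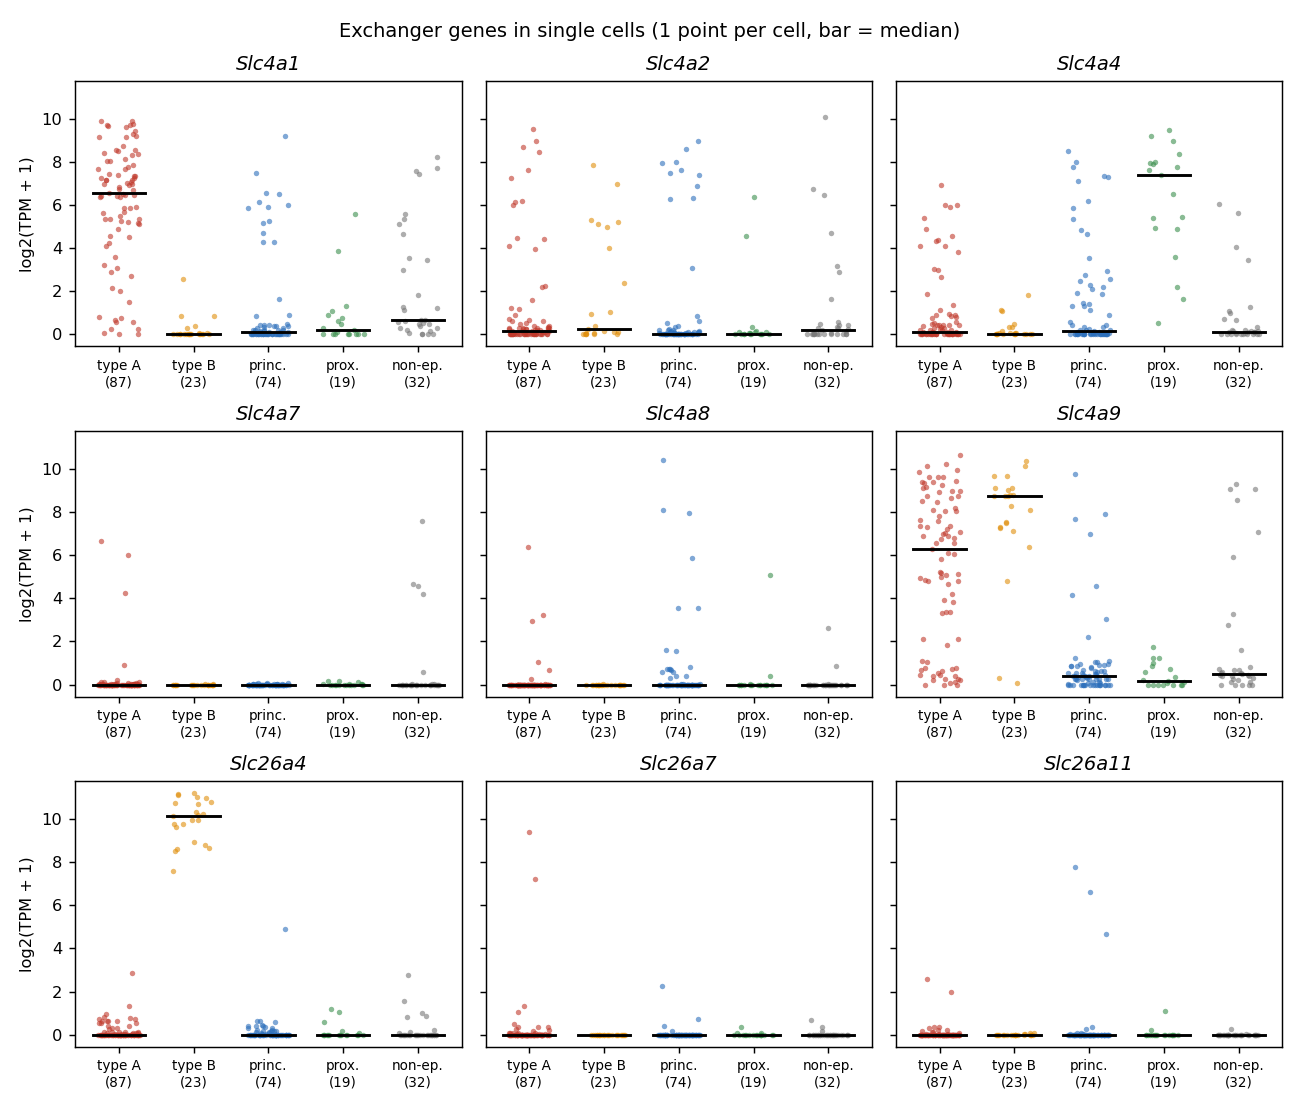
Level of each of the 9 exchanger genes in single cells, in log2(TPM + 1), with 1 point per cell, a bar at the median and the number of cells of each type in parentheses. Slc26a4 stands high in the 23 type B cells alone, Slc4a1 in type A cells, Slc4a9 in both and Slc4a4 in the 19 proximal tubule cells, while the other genes are near 0 in most cells.

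Within each intercalated type, most cells held the same pair of these genes. Among type A cells, 64 of 87 held both Slc4a1 and Slc4a9, 13 held only Slc4a1, 4 held only Slc4a9 and 6 held neither. Slc4a1 was the highest of the 9 genes in 39 type A cells and Slc4a9 in 36. Over the 87 cells the correlation of their log2(TPM + 1) values was 0.0949 (Pearson, a description over cells that share depth and library). In type B cells, 21 of 23 held Slc26a4 with Slc4a9, and Slc26a4 was the highest of the 9 genes in 21. Cells with both Slc4a1 and Slc26a4 at 1 TPM or more numbered 5 over all types. In all 5 the lower of the pair was at most 6.3 TPM. The type A cell with the most Slc26a4 had 313.37 TPM of Slc4a1 and 6.3 TPM of Slc26a4.

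**Figure D2:**
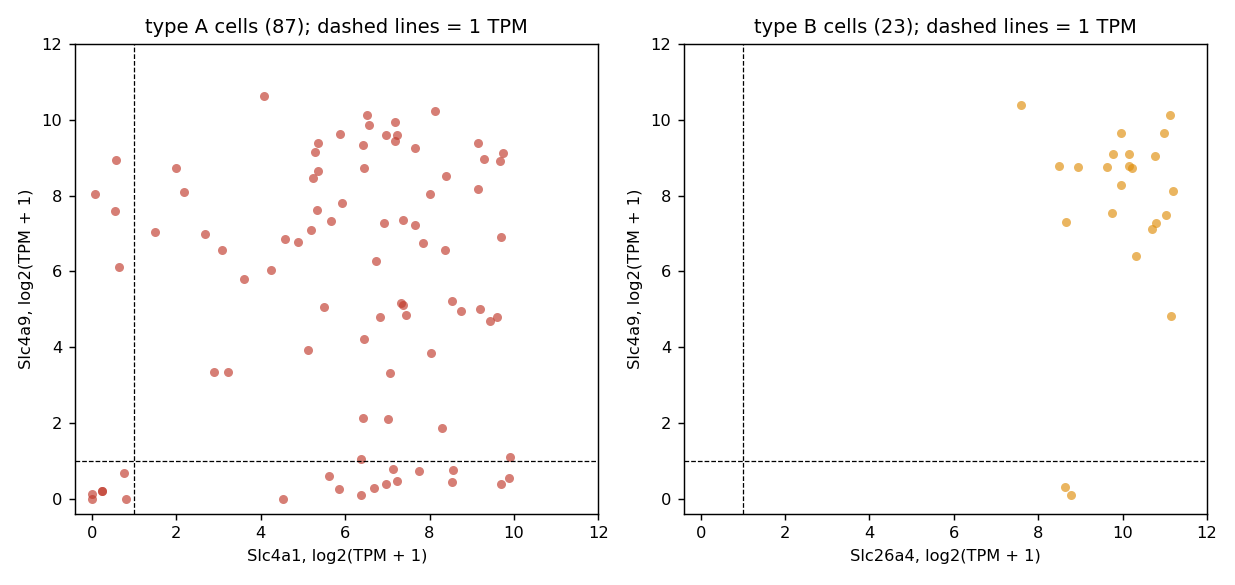
Pairs of exchanger genes within intercalated cells in log2(TPM + 1), with 1 point per cell and dashed lines at 1 TPM. Of the 87 type A cells (left), 64 lie above both lines for Slc4a1 and Slc4a9, and of the 23 type B cells (right), 21 do so for Slc26a4 and Slc4a9.

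Slc4a1 was also read in principal and non-epithelial cells, where the cells holding it had higher medians of summed intercalated markers. Among principal cells, 14 of 74 held it. All 14 held the principal cell water channel Aqp2, 13 held Atp6v1b1 and 6 held Foxi1. Of the 60 principal cells without Slc4a1, 53 held Atp6v1b1 and 4 held Foxi1. Their summed intercalated markers had a median of 904 TPM, against 83.5 TPM in those 60. In non-epithelial cells, 15 of 32 held Slc4a1, and the same sum had a median of 1371 TPM in them, against 10.9 TPM in the other 17. The leukocyte gene Ptprc was detected in 13 of those 15 cells. The 4 proximal tubule cells with Slc4a1 had a median sum of 33.9 TPM, against 7.72 TPM in the other 15, and the type B cell with it had 5847 TPM, against a median of 6057 TPM in the other 22. Free RNA and cells captured together were not tested as sources of these readings, and no caller of doublets was run. A type A cell with mast cell transcripts (14492 TPM over 3 markers) held 33.85 TPM of Slc4a1; without it the mean of the 86 remaining type A cells was 197 TPM.

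Among the sodium-coupled transporters, Slc4a4 had its highest mean and its largest share of cells in the proximal tubule type. It encodes NBCe1, the electrogenic sodium bicarbonate cotransporter that returns bicarbonate to the blood across the basolateral membrane of the proximal tubule. It was detected in 18 of 19 proximal tubule cells (94.7%, 74.0% to 99.9%). The 19 cells ran from 0.45 to 707.73 TPM, with a mean of 194 TPM and a median of 167 TPM. Principal cells had it in 26 of 74, with a mean of 21.2 TPM, and type A cells in 18 of 87, with a mean of 5.94 TPM. The mean was 4.52 TPM in non-epithelial and 0.264 TPM in type B cells. The ranges overlapped, with up to 366.77 TPM in a principal cell and 120.61 TPM in a type A cell. Medians in principal and type A cells were 0.105 and 0.07 TPM. Slc4a4 was the highest of the 9 genes in 18 of 19 proximal tubule cells and in 17 of 74 principal cells, of which 22 had none of the 9 genes at 1 TPM.

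Slc4a8, the sodium-driven chloride-bicarbonate exchanger NDCBE, was detected in 8 of 74 principal cells, with a mean of 26.7 TPM that rests largely on a cell at 1369.45 TPM. It was found in 4 of 87 type A, 1 of 19 proximal tubule and 1 of 32 non-epithelial cells. None of the 23 type B cells held it, which allows a share of up to 14.8% by the exact interval. Slc4a7, the electroneutral sodium bicarbonate cotransporter NBCn1, was detected in 4 of 32 non-epithelial and 3 of 87 type A cells and in no other. Its means were 8.08 and 2.08 TPM there. For both genes the median was below 1 TPM in every type, and the types cannot be ordered by them.

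The other chloride-bicarbonate and Slc26 genes were read in few cells. Slc4a2, which encodes the widely expressed exchanger AE2, was detected in 9 of 23 type B, 18 of 87 type A, 11 of 74 principal, 7 of 32 non-epithelial and 2 of 19 proximal tubule cells. Its means of 22.5, 30.2, 29.8, 41.1 and 5.55 TPM, in the same order, had SDs larger than themselves. Slc26a7, an anion transporter of the basolateral membrane of type A cells in the medullary collecting duct, was detected in 4 of 87 type A cells, up to 678.13 TPM, and all 4 also held Slc4a1. Elsewhere it was read in 1 principal cell, at 3.76 TPM. Slc26a11, a sulfate and chloride transporter, was detected in 3 of 74 principal, 2 of 87 type A and 1 of 19 proximal tubule cells and reached 214.94 TPM in a principal cell.

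By mean level, 4 of the 9 genes were highest in an intercalated type: Slc4a1 and Slc26a7 in type A, and Slc4a9 and Slc26a4 in type B. Of 13411 genes averaging 1 TPM or more over all single cells, 34.0% were highest in an intercalated type. Slc4a2 and Slc4a7 were highest in non-epithelial, Slc4a8 and Slc26a11 in principal and Slc4a4 in proximal tubule cells. For Slc4a2, Slc4a7, Slc4a8, Slc26a7 and Slc26a11 the highest mean rests on a few cells, and their medians were below 1 TPM in every type. At least 50% of type A cells held Slc4a1 and Slc4a9, and at least 50% of type B cells held Slc26a4 and Slc4a9, 2 of 9 genes in each. Over all 19175 genes detected in any cell, the shares were 7.86% for type A and 9.04% for type B. No member reached 50% of principal cells, where 8.42% of all genes did.

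Genes whose level followed a member most closely over all single cells were named from 6566 genes that averaged 10 TPM or more and were detected in at least 20 cells. For Slc4a1 these were Mme (Pearson r of log2(TPM + 1), 0.744), Adgrf5 (0.739) and Dmrt2 (0.736). For Slc4a9 they were 3 subunits of the vacuolar proton pump, Atp6v1c2 (0.714), Atp6v1g3 (0.685) and Atp6v0d2 (0.681). Slc26a4 was followed by the homeobox gene Hmx2 (0.833), the receptor gene Insrr (0.811) and Igfbp5 (0.631). Slc4a4 was followed by Xylb (0.594), Spp2 (0.593) and the phosphate transporter gene Slc34a1 (0.589). For Slc4a2 the highest values were 0.291 for Ilf2, 0.277 for Tuba4a and 0.267 for Stau1. These values mix differences between and within types, and cells of a library share its depth.

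Whole tubules were compared next. Slc26a4, Slc4a9, Slc4a1 and Slc26a7 were higher in CCD than in cTAL, so 4 of the 9 genes passed the test, all upward. The test was limma on log2(TPM + 1) over 13520 genes averaging 1 TPM or more, called at an adjusted p under 0.05 (Benjamini-Hochberg). By this rule 18.7% of all genes were called, 13.2% upward and 5.5% downward. The scale understates the change of genes with low values, and a difference in a bulk sample may come from the number of cells of a type or from RNA per cell, which cannot be told apart. The tubule labels held: thick ascending limb markers summed to 33613 to 53916 TPM in cTAL and 53.5 to 701 TPM in CCD. The median gene differed by 0.31 between the segments. After quantile normalization the median was -0.03 and the split of called genes moved from 1782 higher and 744 lower to 1221 and 1244.

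Slc26a4 ran from 745.82 to 1556.01 TPM over the 11 CCDs, with a median of 1057 TPM, and from 0.27 to 2.2 TPM over the 8 cTALs, with a median of 0.745 TPM. The groups did not overlap, and the log2 difference was 9.28 ± 0.20 (SE; limma adjusted p = 5.34e-20). Slc4a9 ran from 191.93 to 848.79 TPM in CCD (median 653 TPM) and from 0.1 to 3.97 TPM in cTAL (median 0.595 TPM), a log2 difference of 8.33 ± 0.30 (adjusted p = 7.46e-16). Slc4a1 ran from 121.94 to 442.03 TPM in CCD (median 339 TPM) and from 0.01 to 0.42 TPM in cTAL (median 0.235 TPM). Its log2 difference was 7.78 ± 0.28 (adjusted p = 8.31e-16). For each of these 3 genes the lowest CCD was far above the highest cTAL. The share of all genes separated in this way was not computed. Erythroid markers varied widely in both segments, from 0.19 to 166 TPM in CCD and 0.49 to 303 TPM in cTAL in sum. Slc4a1 stayed below 1 TPM in every cTAL. The part of red cells in its level was not tested.

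Slc26a7 was far lower. It ran from 0.02 to 22.42 TPM in CCD, with a median of 7.05 TPM, and from 0 to 7.39 TPM in cTAL, with a median of 0.015 TPM. The groups overlapped, and the log2 difference was 2.26 ± 0.54 (limma adjusted p = 0.00386). With the mean of each column-name prefix and segment as the unit, it was 1.84 with an adjusted p of 0.0987, no longer called.

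The remaining 5 genes did not pass the test. Slc4a2 was alike in range, 38.57 to 108.32 TPM in CCD (median 62.8 TPM) and 39.72 to 119.29 TPM in cTAL (median 57.4 TPM), with a log2 difference of 0.12 ± 0.25 (limma adjusted p = 0.783) that became -0.08 after quantile normalization. Slc4a8 ran from 7.28 to 30.46 TPM in CCD (median 14.7 TPM) and from 1.77 to 45.39 TPM in cTAL (median 22.0 TPM), with a log2 difference near 0 (0.09 ± 0.44, adjusted p = 0.915), and its difference was -0.32 after quantile normalization. Slc26a11 lay between 0 and 21.44 TPM in CCD (median 9.44 TPM) and 0 and 15.62 TPM in cTAL (median 5.34 TPM), a log2 difference below its own SE (0.70 ± 0.72, adjusted p = 0.566).

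For 2 sodium-coupled genes the call depended on the tubules and settings used. Slc4a4 ran from 0.02 to 10.91 TPM in CCD (median 3.08 TPM) and 0 to 3.46 TPM in cTAL (median 0.36 TPM), a log2 difference of 1.15 ± 0.42 (limma adjusted p = 0.0626). Without the CCD that stood apart it was 1.34 (adjusted p = 0.0141), and it also passed without each of 2 cTALs, at adjusted p values of 0.0299 and 0.0478. It further passed with sample weights (0.0256), with a correlation within column-name prefixes (0.0466) and without a variance trend (0.0486), while its difference was 0.31 after quantile normalization, 0.45 with a pseudocount of 5 and 2.32 with one of 0.1. NBCn1 is known on the basolateral membrane of the thick ascending limb. Its gene Slc4a7 ran from 0 to 2.78 TPM in CCD (median 0.02 TPM) and 0 to 10.88 TPM in cTAL (median 2.39 TPM), a log2 difference of -1.27 ± 0.46 (adjusted p = 0.0560). It passed with sample weights (-1.51, adjusted p = 0.00253), with a correlation within prefixes (0.0460) and after quantile normalization (-1.57, adjusted p = 0.00888). Without each of 3 cTALs and 1 CCD in turn, it passed as well, at adjusted p values of 0.0211, 0.0215, 0.0498 and, for the CCD, 0.0278.

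**Figure D3:**
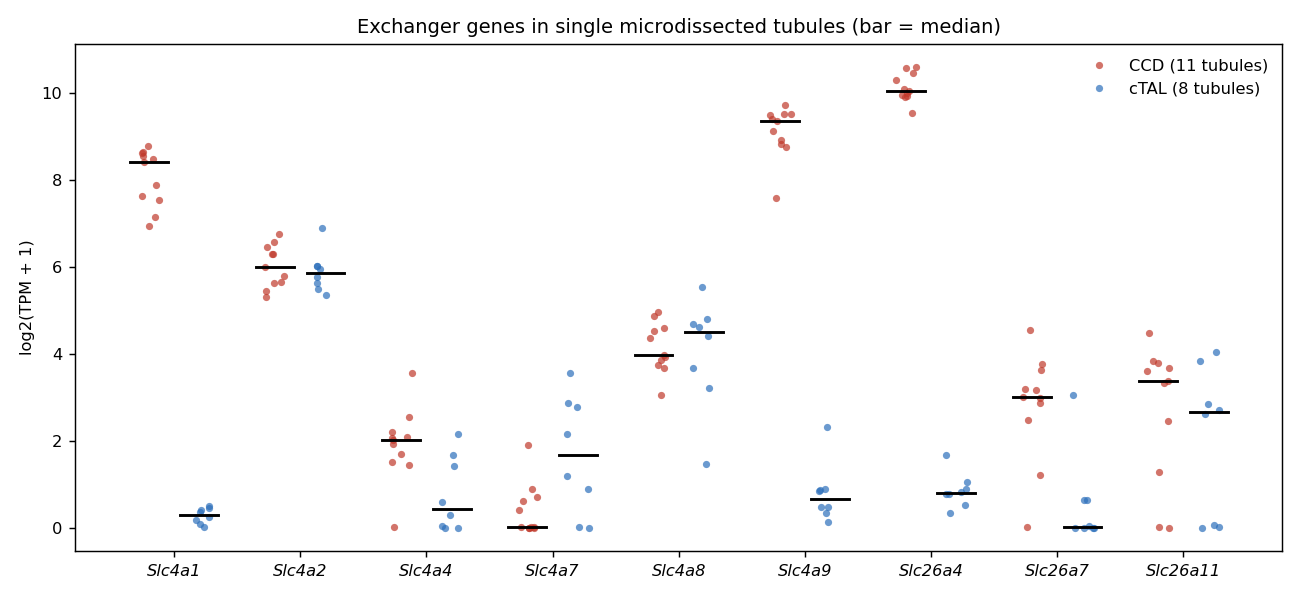
Level of the 9 exchanger genes in single tubules, in log2(TPM + 1), with 1 point per tubule and a bar at the median for 11 CCDs and 8 cTALs. Slc4a1, Slc4a9 and Slc26a4 separate the segments fully, and Slc4a2 and Slc4a8 overlap. How many of all genes separate the segments was not computed.

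The sorted fractions of strain Atp6v1b1GFP were compared to ask which exchangers follow fluorescence. GFP-positive samples had higher Slc4a1, Slc4a9, Slc26a4, Slc26a7 and Slc4a8 and lower Slc4a4, so 6 of the 9 genes were called by edgeR's quasi-likelihood test at an adjusted p under 0.05. Over 15671 genes tested, 32.6% were called, 15.2% higher and 17.3% lower. The gene in the strain's name, Atp6v1b1, was higher in GFP-positive samples by 4.97 ± 0.23 on the log2 scale (adjusted p = 2.77e-05). All 5 principal markers and all 6 markers of the distal convoluted and connecting tubule were also higher, and all 5 proximal tubule, 5 leukocyte and 3 endothelial markers were lower.

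Normalised read counts (CPM, scaled to library size) are given for the GFP-negative pair and then the GFP-positive pair. Slc4a1 had 37.8 and 20.0 CPM against 1632 and 3260 CPM, a log2 difference of 6.40 ± 0.47 (edgeR adjusted p = 5.34e-05). Slc4a9 had 11.0 and 7.02 CPM against 1153 and 744 CPM (6.71 ± 0.35, adjusted p = 3.36e-05). Both were higher in each positive sample than in any negative sample, but the positive replicates ordered them oppositely. How many of all genes separate the groups in this way was not computed. Slc26a4 had 7.08 and 3.10 CPM against 828.6 and 594.9 CPM (7.12 ± 0.43, adjusted p = 4.31e-05). Slc26a7 had 3.77 and 4.04 CPM against 132 and 385 CPM (6.05 ± 0.51, adjusted p = 8.09e-05). Replicate 2 of the positive samples thus held more Slc4a1 and Slc26a7 and less Slc4a9 and Slc26a4 than replicate 1, and the summed type A markers, from 1338 to 3873 RPKM over the positive pair, varied as well.

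Slc4a8 had 15.3 and 9.95 CPM against 38.7 and 44.8 CPM, a log2 difference of 1.73 ± 0.27 (edgeR adjusted p = 0.00152). With limma on the deposited RPKM values it was 1.06 with an adjusted p of 0.316. Slc4a4 had 2185 and 1998 CPM against 587 and 356 CPM and fell by 2.15 on the log2 scale (SE 0.27, adjusted p = 4.91e-04). Proximal tubule markers moved with it, with sums of 1535 to 1632 RPKM in the negative and 161 to 313 RPKM in the positive samples, and their part in the result was not tested.

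Slc4a7 had 90.9 and 84.9 CPM against 64.0 and 61.8 CPM (-0.48 ± 0.16, edgeR adjusted p = 0.0532). It was called with the experiment number as a block (adjusted p = 0.0434) and with a filter on a mean of at least 50 counts (0.0392). Slc4a2 had 40.7 and 33.0 CPM against 47.4 and 56.7 CPM (0.50 ± 0.21, adjusted p = 0.0978). Slc26a11 had 15.1 and 14.5 CPM against 11.7 and 12.0 CPM (-0.32 ± 0.25, adjusted p = 0.363), and its difference was 0.32 in RPKM, the other direction.

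In the fractions of C57BL/6 cells, c-Kit samples held more Slc4a1, Slc4a9, Slc26a4 and Slc26a7 and less Slc4a4 and Slc4a8 than DBA samples. These 6 of 9 genes were called by limma, among 14341 genes of which 44.3% were called, 16.1% higher and 28.1% lower. The sort shows in the markers: the 4 intercalated markers summed to 4361 and 4941 TPM in c-Kit and 325 and 338 TPM in DBA samples, and the 5 principal markers to 2395 and 3238 TPM against 21662 and 24135 TPM. Mast cell markers, which Kit-positive mast cells carry, summed to 56.4 and 65.7 TPM against 0.16 and 0.32 TPM, and leukocyte markers to 4729 and 4809 TPM against 12740 and 13340 TPM. Their part in the results was not tested. After quantile normalization the split of called genes moved from 2315 higher and 4033 lower to 3055 and 3072.

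Slc4a1 was at 1762.54 and 1692.39 TPM in the c-Kit samples and 28.59 and 34.64 TPM in the DBA samples, a log2 difference of 5.73 ± 0.09 (limma adjusted p = 5.78e-07). The red cell gene list summed to at most 4.49 TPM in any of these samples. Slc4a9 was at 945.8 and 996.73 TPM against 53.58 and 55.62 TPM (4.13 ± 0.06, adjusted p = 5.58e-07). Slc26a4 was at 481.18 and 457.25 TPM against 79.18 and 66.69 TPM (2.67 ± 0.09, adjusted p = 6.06e-06). In each of the 3 the replicates lay close together and the groups far apart, and the share of all genes that do so was not computed. Slc26a7 was at 6.46 and 9.91 TPM against 0.92 and 1.59 TPM (2.02 ± 0.26, adjusted p = 0.00115), at a far lower level.

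Slc4a4 was at 68.43 and 62.19 TPM in the c-Kit samples against 163.82 and 150.8 TPM in the DBA samples, a log2 difference of -1.26 ± 0.08 (limma adjusted p = 5.60e-05). Proximal tubule markers, whose part was not tested, summed to 1389 and 1552 TPM against 3003 and 3101 TPM. Slc4a8 was at 8.78 and 11.1 TPM against 17.23 and 14.57 TPM (-0.63 ± 0.16, adjusted p = 0.0169). The call on Slc4a8 was lost without c-Kit replicate 1 (adjusted p = 0.0723), DBA replicate 1 (0.163) or DBA replicate 2 (0.0823), with no filter on low values (0.0633) and after quantile normalization (0.0646).

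The other 3 genes did not pass the test, and of these the groups overlapped for Slc26a11 alone. The share of all genes without overlap was not computed. Slc4a2 was at 67.08 and 61.74 TPM against 58.47 and 51.72 TPM (0.22 ± 0.09, limma adjusted p = 0.0869), and it was called after quantile normalization (0.27, adjusted p = 0.0422). Slc4a7 was at 2.4 and 2.09 TPM against 3.18 and 3.66 TPM (-0.45 ± 0.19, adjusted p = 0.109), and it was called without a variance trend (adjusted p = 0.0358). Slc26a11 was at 12.5 and 10.29 TPM against 12.23 and 12.75 TPM (-0.13 ± 0.14, adjusted p = 0.485), and quantile normalization turned its difference to 0.08.

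**Figure D4:**
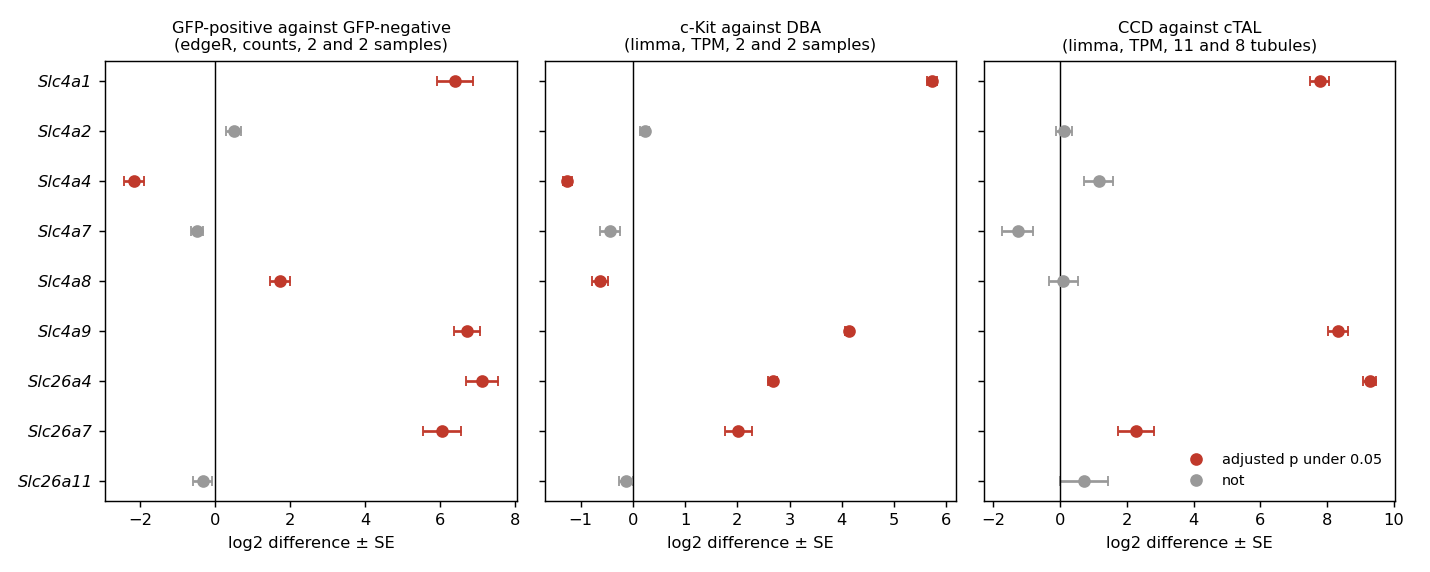
Log2 difference ± SE of the 9 exchanger genes in the 3 comparisons of sorted cells and tubules, red where the adjusted p is under 0.05 and grey where it is not; each panel has its own axis. Slc4a1, Slc4a9, Slc26a4 and Slc26a7 lie to the right of 0 in all 3 panels, and Slc4a4 lies to the left in both sorted comparisons.

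Levels per length allowed the genes to be set against each other within a sample. The 9 genes summed to 2137 ± 491 TPM in CCD (SD, n = 11) and 95.7 ± 21.7 TPM in cTAL (n = 8). In CCD, Slc26a4 made up 53.9% ± 3.73 of this sum, Slc4a9 27.6% ± 6.30 and Slc4a1 13.4% ± 4.34. The CCD that stood apart held the highest share of Slc26a4 (61.1%) and the lowest of Slc4a9 (11.1%), and without it these shares were 53.2% ± 3.04, 29.2% ± 3.31 and 12.6% ± 3.77 and the sum 2178 ± 498 TPM (n = 10). In cTAL the largest shares were those of Slc4a2, 65.0% ± 18.8, and Slc4a8, 21.0% ± 12.7. In the c-Kit samples (sum 3329 ± 36.4 TPM, n = 2) Slc4a1 led with 51.9%, before Slc4a9 with 29.2% and Slc26a4 with 14.1%. DBA samples (405 ± 17.8 TPM, n = 2) had Slc4a4 first with 38.9%, then Slc26a4 with 18.0%.

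In GFP-negative samples Slc4a4 was 88.9% of the summed RPKM, and in GFP-positive samples Slc4a1 was 41.8% ± 16.9 (SD, n = 2) and Slc4a9 29.7% ± 12.5. Slc4a9 led in the first GFP-positive experiment with 38.6% and Slc4a1 in the second with 53.8%. The ratio of Slc26a4 to Slc4a1 put the intercalated exchangers in opposite order in tubules and in c-Kit cells. It ran from 2.63 to 6.84 over the 11 CCDs, with a median of 4.17 (4.56 without the CCD that stood apart), and was 0.270 and 0.273 in the c-Kit samples. In DBA samples it was 1.93 and 2.77, and in GFP-positive samples 0.174 and 0.557 on the RPKM scale. The tables were normalized separately, so these ratios were not tested against each other. Of the 23 type B single cells, 17 came from the PNA sort, 4 from c-Kit alone, 1 from DBA alone and 1 from DBA with c-Kit. Of the 87 type A cells, 60 came from the sort with DBA and c-Kit, 25 from c-Kit alone and 2 from DBA alone. The part of the sorts in these ratios was not tested.

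**Figure D5:**
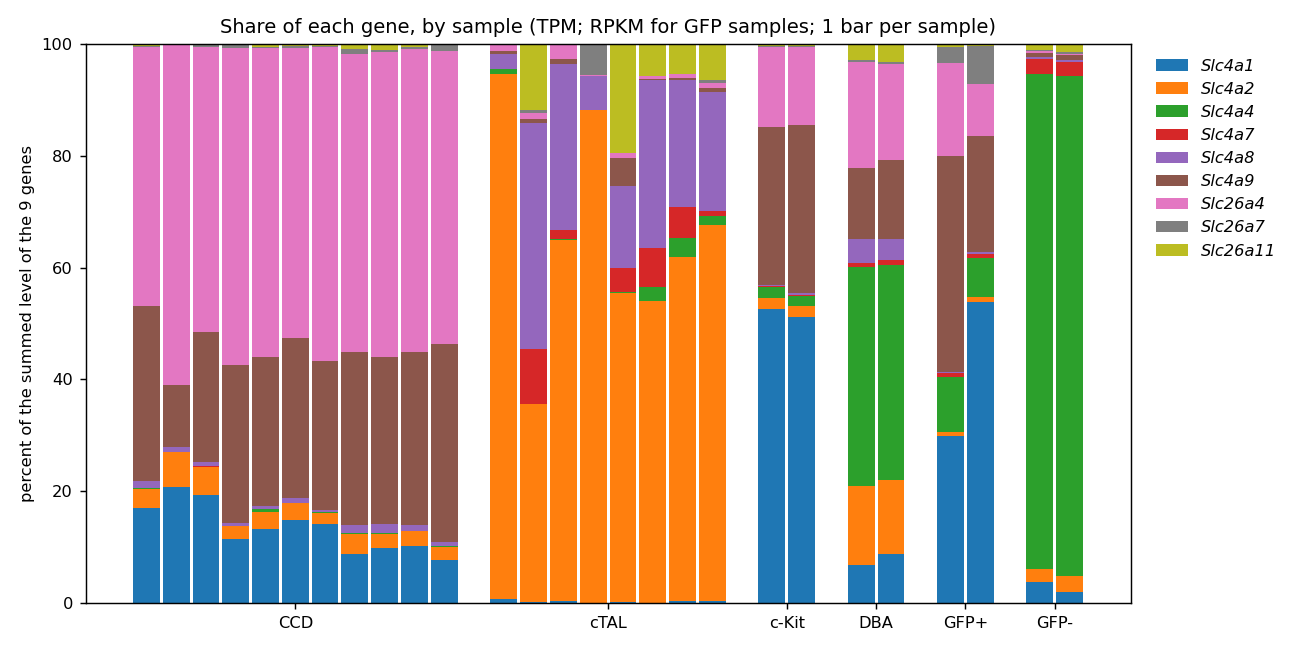
Share of each exchanger gene in the summed level of the 9 genes, in percent, with 1 bar per sample (TPM, or RPKM for the GFP samples). Slc26a4 fills 46.4% to 61.1% in every CCD, Slc4a2 leads in most cTALs, Slc4a1 in c-Kit cells and Slc4a4 in DBA and GFP-negative cells.

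Other acid-base genes were described from a list of 47 partners. In CCD against cTAL, 39 were tested and 28 called, 22 higher and 6 lower, where 18.7% of all genes were called. The median log2 difference was 1.05, against 0.31 over all genes. All 8 proton pump genes and both ammonia transporter genes were among those higher, and of 6 other Slc4 and Slc26 genes tested, 2 were higher and 2 lower. The largest increases were in the ammonia transporters Rhcg (9.96 ± 0.21, limma adjusted p = 5.34e-20) and Rhbg (9.11) and the forkhead factor Foxi1 (8.78). The largest decreases were in the sodium-potassium-chloride cotransporter Slc12a1 (-8.70), the membrane carbonic anhydrase Car4 (-5.74) and the sodium-proton exchanger Slc9a3 (-5.67). Cytosolic carbonic anhydrase Car2 was higher by 2.38 ± 0.11 and Atp6v1b1 by 2.00 ± 0.18.

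Between GFP-positive and GFP-negative cells, 43 partners were tested and 33 called by edgeR, 27 higher and 6 lower. Of all genes tested, 32.6% were called. The median of the partners was 2.37, against 0.02 over all genes. The homeobox gene Hmx2 (7.01), Foxi1 (6.90) and the alkali-sensing receptor gene Insrr (6.79) had the largest increases. The sulfate transporter gene Slc26a1 (-2.33), the membrane carbonic anhydrase Car14 (-2.12) and the chloride channel Cftr (-2.08) had the largest decreases. Car2 was higher by 2.77 ± 0.24. By role, all 8 proton pump genes and both ammonia transporter genes were higher, as were 3 of 5 carbonic anhydrases, the other 2 being lower. Of 8 other Slc4 and Slc26 genes tested, 3 were higher and 2 lower.

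Between c-Kit and DBA cells, 40 partners were tested and 29 called by limma, 21 higher and 8 lower. Of all genes tested, 44.3% were called. The median of the partners was 0.42, against -0.11 over all genes. Of the 8 proton pump genes, 6 were higher and 2 lower. The latter encode catalytic subunits of potassium-proton pumps, Atp12a (-1.82) and Atp4a (-0.50), and Atp4a was named after its value was seen. Of 8 regulators and sensors tested, 6 were higher, and of 5 carbonic anhydrases, 2 were higher and 2 lower. The largest increases were in the oxoglutarate receptor Oxgr1 (5.59), the transcription factor Dmrt2 (4.92) and the pump subunit Atp6v1g3 (4.80). After Atp12a, the largest decreases were in Slc26a1 (-1.29) and Car14 (-0.97). Foxi1 was higher by 3.76 ± 0.05, Atp6v1b1 by 2.13 ± 0.17 and Car2 by 1.42 ± 0.07. Among the partners, Foxi1, Atp6v1b1, Atp6v0d2, Atp6v1g3, Dmrt2, Hmx2 and Insrr are also among the intercalated markers used here, so their direction is not separate evidence.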

How the data were processed

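Single cells, sorted cells and dissected tubules were profiled by RNA sequencing. Per the submitters' processing notes, STAR 2.5.1b, RSEM 1.2.31, Seurat and build GRCm38.p5 were used, with no role given. TPM values were deposited by the authors for cells, c-Kit, DBA and tubule samples; the tubule unit was read from the column sums. For the GFP samples the authors deposited read counts from HTSeq-count and RPKM values on mm10 RefSeq genes, per the file headers and names. Reads not assigned to a gene (66.7% to 72.8%) were left out. TPM keeps no depth, so no interval could be given for those levels. Deposited per-sample columns not used numbered 0.

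The test of the counts was edgeR 4.0.16 (quasi-likelihood, after TMM and filterByExpr) and that of TPM values limma 3.58.1 on log2(TPM + 1) with a variance trend, in R 4.3.3, over genes averaging 1 TPM or more. P-values were adjusted by Benjamini-Hochberg over all genes tested. Separate animals are not stated for replicates, so p-values measure the spread between these samples, which may be technical. Shares of cells have exact Clopper-Pearson 95% intervals (scipy 1.17.1). Cell types are the submitters' own. Fits were tested on simulated data.

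The members, lists and comparisons were chosen with earlier results of these data known. The text names the 9 members, partner genes called with the 3 largest differences per direction, and Foxi1, Car2 and Atp6v1b1. Alternatives covered DESeq2 1.42.0, other normalizations, filters, pseudocounts and thresholds, blocks and left-out samples; those on the tubule prefix, on single left-out tubules and on the cell with mast cell transcripts were chosen after seeing the data. The GFP replicate numbers mark a first and a second experiment per the file headers. Same-numbered GFP samples deviated together weakly (r = 0.168, equal for both pairs because each group has 2 samples). For c-Kit and DBA, replicate numbers are numbers only. Between segments, tubules sharing a column-name prefix had r from 0.0154 to 0.159. Sequences came from RefSeq (GRCm38.p6) and positions from GENCODE M21.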

Additional observations from a re-analysis of the deposited data

Results flagged for a closer look

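In 4 of the 9 exchanger genes, 1 of the 8 cTALs lay far from the others, by the gap to its neighbour as a share of the whole range; for normally distributed values chance gives this in about 1 in 20 groups, and 9 groups were tested. These TPM values lie near 0 or are skewed, and the rate for such values was not measured. Slc4a2 reached 119.29 TPM in a cTAL, with the next at 64.47 TPM. The same tubule had the highest Slc26a7, 7.39 TPM, with the next at 0.57 TPM. Slc4a9 reached 3.97 TPM in another cTAL, with the next at 0.85 TPM, and Slc26a4 reached 2.2 TPM in a further cTAL, with the next at 1.08 TPM. The tubule with 119.29 TPM of Slc4a2 is also 1 of the 3 cTALs without which Slc4a7 was called, at an adjusted p of 0.0211 by limma.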

How the results depend on the processing

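Of 114 alternative values of the counts that the comparisons lead with, 113 stayed within 1.5 times the main count; the exception was the number of members in at least 50% of principal cells, 0 at 1 TPM and 2 at 0.1 TPM. Shares of cells with a gene moved more, in 40 values at other thresholds: at 0.1 TPM, Slc26a4 was read in 21 of 87 type A cells, Slc4a1 in 5 of 23 type B and 33 of 74 principal cells and Slc4a9 in 50 of 74 principal cells. The cause was not tested for any value that moved. Differences that changed sign, none of them called, were those of Slc26a11 in GFP cells with RPKM (0.32) and in c-Kit cells after quantile normalization (0.084) or without a c-Kit replicate (range with 1 sample left out -0.257 to 0.00134). In tubules they were those of Slc4a2 after quantile normalization (-0.078) and of Slc4a8 after quantile normalization (-0.32), with sample weights (-0.14) or without either of 2 cTALs (-0.28 and -0.03, in a range of -0.28 to 0.30 with 1 tubule left out).

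With 1 sample left out, 6 members were called in each GFP fit, 5 to 6 in c-Kit and 4 to 5 in tubules, and 31 to 33, 23 to 29 and 27 to 29 partner genes; a lone sample was assumed to vary like the others. In GFP cells Slc26a7 ranged from 5.08 to 6.60. Over all genes, 5101 calls in GFP cells became 1639 of 13474 with RPKM, and 2526 in tubules became 4401 with sample weights. Leaving out a sample gave 3458 to 5701 calls in c-Kit against 6348, with 3600 without DBA replicate 1 and 3458 without DBA replicate 2.

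With the replicate number as a block, 7 members and 34 partners were called in GFP cells, with Slc4a7 added, and 6 and 29 in c-Kit cells, where same-numbered samples shared only a number (r = 0.0264). With the tubule prefix as a block, whose meaning is not stated, 4 and 29 were called. The block changed no other call on a member. TPM hides depth, so a level near 0 in a cell is not shown to be absence.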
